A study of Mus musculus with 12 samples.

Results

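The collagen gene family was described in brown and white fat of the mouse. Its members were all protein-coding genes whose symbol is Col, a type number, the letter a and a chain number, which gave 44 of the 22028 protein-coding genes and of the 55536 genes counted. By class, 11 encode fibrillar chains, 8 chains of basement membranes, 9 network-forming chains and 16 chains of other kinds. Poly-A RNA of whole brown fat (BAT) and inguinal white fat (IWAT) from C57BL/6 mice had been sequenced with single-end, non-stranded libraries. In each depot 3 libraries titled WT-NC carried the wild-type label and stood for normal chow. The other 3, titled KI-HFD, carried the genotype label Adv-CGRPalpha+/- and stood for high-fat diet. Genotype and diet changed together, so their effects cannot be told apart, and the labels used here do not say what drives the allele or give age or sex.

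Collagens are secreted or membrane-bound proteins whose chains wind into a stiff helix. Fibrillar chains assemble into the banded fibrils between cells, type IV chains into the sheet of the basement membrane, and type VI chains into beaded filaments close to the cell. In fat, fibroblasts and adipocyte progenitors are known as main sources of interstitial collagen, and every adipocyte is wrapped in a basement membrane.

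The starts of 4 members are shown as examples. They are Col1a2 and Col3a1, fibrillar chains lower in BAT, and Col27a1, a fibrillar chain higher in BAT. The last is Col4a1, the chain with the most reads per length in BAT. The part of these starts in the depot differences was not tested. Each window runs from 250 bases before to 50 bases after a RefSeq start, read along the gene's strand, in GRCm38.p6. They lie at chr6:4505368-4505667 (plus strand) for Col1a2, chr1:45311288-45311587 (plus) for Col3a1, chr4:63215162-63215461 (plus) for Col27a1 and chr8:11312777-11313076 (minus) for Col4a1. Capitals mark matches on either strand to the CCAAT box (letters CCAAT), the GC box core (letters GGGCGG) and the TATA sequence (letters TATAAA).
Col1a2: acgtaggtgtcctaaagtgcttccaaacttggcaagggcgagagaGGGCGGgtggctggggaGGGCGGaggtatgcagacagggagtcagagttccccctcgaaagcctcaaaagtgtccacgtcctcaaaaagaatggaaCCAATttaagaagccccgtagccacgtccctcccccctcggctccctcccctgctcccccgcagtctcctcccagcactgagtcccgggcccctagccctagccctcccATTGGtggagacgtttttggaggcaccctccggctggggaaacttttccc
Col3a1: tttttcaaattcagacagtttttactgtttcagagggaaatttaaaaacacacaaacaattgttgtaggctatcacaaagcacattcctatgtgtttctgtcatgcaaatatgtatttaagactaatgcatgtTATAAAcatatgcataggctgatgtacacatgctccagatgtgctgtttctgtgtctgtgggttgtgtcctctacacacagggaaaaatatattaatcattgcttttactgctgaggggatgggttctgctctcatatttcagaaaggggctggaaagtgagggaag
Col27a1: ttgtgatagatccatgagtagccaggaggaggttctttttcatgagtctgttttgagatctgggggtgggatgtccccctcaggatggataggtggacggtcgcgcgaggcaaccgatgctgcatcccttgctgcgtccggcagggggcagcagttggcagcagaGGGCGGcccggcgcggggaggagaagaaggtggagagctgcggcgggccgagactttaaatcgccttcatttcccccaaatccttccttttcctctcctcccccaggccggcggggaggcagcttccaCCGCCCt
Col4a1: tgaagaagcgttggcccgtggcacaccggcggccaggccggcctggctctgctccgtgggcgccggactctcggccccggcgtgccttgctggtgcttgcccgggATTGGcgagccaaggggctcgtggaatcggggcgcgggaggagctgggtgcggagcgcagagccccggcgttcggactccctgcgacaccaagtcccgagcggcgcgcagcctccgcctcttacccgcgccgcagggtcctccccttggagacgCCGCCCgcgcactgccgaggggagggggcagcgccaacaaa
The Col3a1 window held TATAAA alone and the Col27a1 window GGGCGG alone, while the Col1a2 and Col4a1 windows held both CCAAT and GGGCGG. The table had windows for 35 members, 38 in all. GGGCGG was found in 60.5% of these 38 windows and in 35.7% of the 32851 windows of all genes. CCAAT was found in 34.2% against 37.4%, and TATAAA in 13.2% against 13.6%. Not all 38 windows are separate: those of Col4a1 and Col4a2 overlap and share a GGGCGG site, and those of Col6a2 overlap. Members without a window, Col1a1 among them, are not in these shares. All of these are matches of letters, and no binding was measured.

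The 12 libraries held 17.4 to 23.5 M gene counts. Levels below are CPM, counts scaled to the library's size after TMM scaling over all 12 libraries. The 6 brown adipocyte markers, Ucp1 among them, summed to 9575 to 17887 CPM in BAT and 29.7 to 156 CPM in IWAT, as the tissue labels say. Some libraries stood apart in markers of other tissues. The 8 skeletal muscle markers summed to 14818, 53623 and 450.3 CPM in BAT WT-NC, 12462, 8943 and 1804 CPM in BAT KI-HFD and 33.2 to 772 CPM in IWAT. The 6 lymphocyte markers summed to 675 CPM in IWAT KI-HFD replicate 3 and to 4.03 to 34.6 CPM in the other libraries, and the 6 epithelial markers to 45.0 CPM in IWAT WT-NC replicate 2 and at most 2.15 CPM elsewhere.

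Col2a1, the main collagen of cartilage, had no count in any library. Another 6 members stayed under 1 CPM throughout, namely the cartilage chains Col11a1, Col9a1 and Col9a2, the network chain Col8a2, and Col25a1 and Col26a1. At least 1 count in every library was found for 29 members. A filter on low counts let 28 members into all 5 comparisons and 6 into some of them. It kept Col2a1, Col11a1, Col24a1, Col25a1, Col26a1, Col4a6, Col6a4, Col6a5, Col9a1 and Col9a2 out of every test, which are 10 members.

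**Figure D1:**
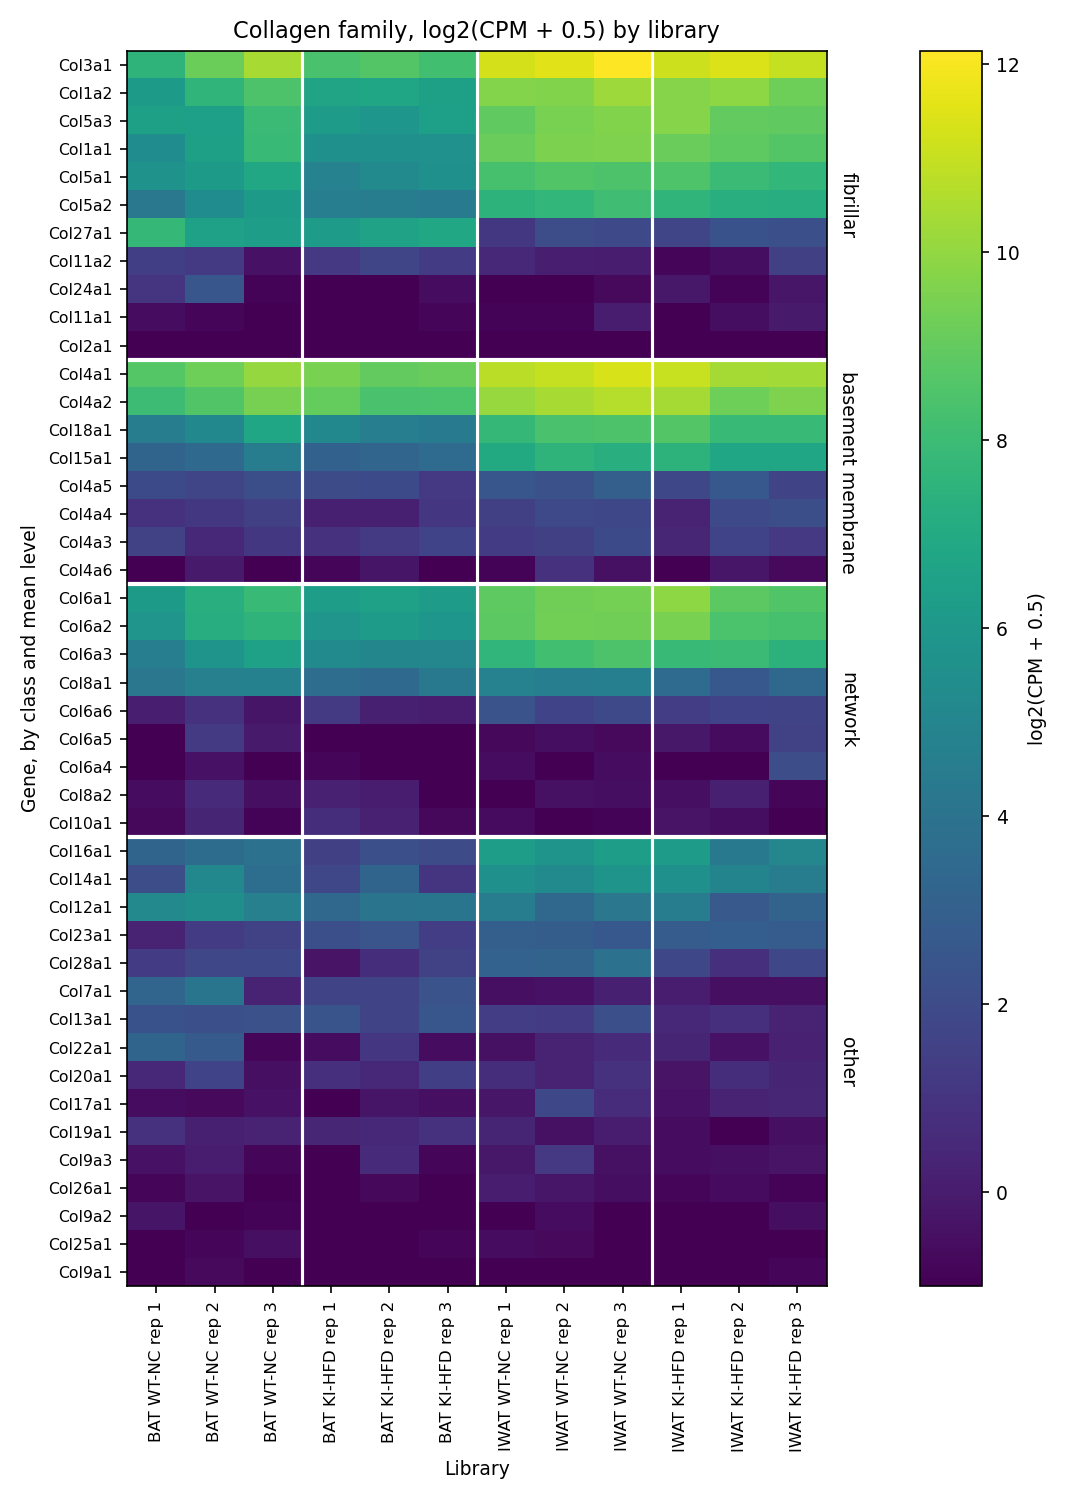
Heat map of log2(CPM + 0.5) for the 44 collagen genes (rows, by class) in the 12 libraries (columns, 3 per group). The abundant fibrillar, type IV and type VI genes are higher in the IWAT columns, Col27a1 is higher in the BAT columns, and Col2a1 is at its floor in all 12.

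Summed over the family, BAT WT-NC had 1626, 2715 and 5008 CPM, BAT KI-HFD 2194, 1886 and 1834 CPM, IWAT WT-NC 9492, 11563 and 14545 CPM, and IWAT KI-HFD 11174, 8509 and 7275 CPM. Every IWAT library lay above every BAT library, and within a depot the 2 groups overlapped. As a share of all counts the family took 0.163 to 0.472% in BAT and 0.843 to 1.61% in IWAT. In bulk tissue, fewer cells of a type and less RNA per cell cannot be told apart.

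**Figure D2:**
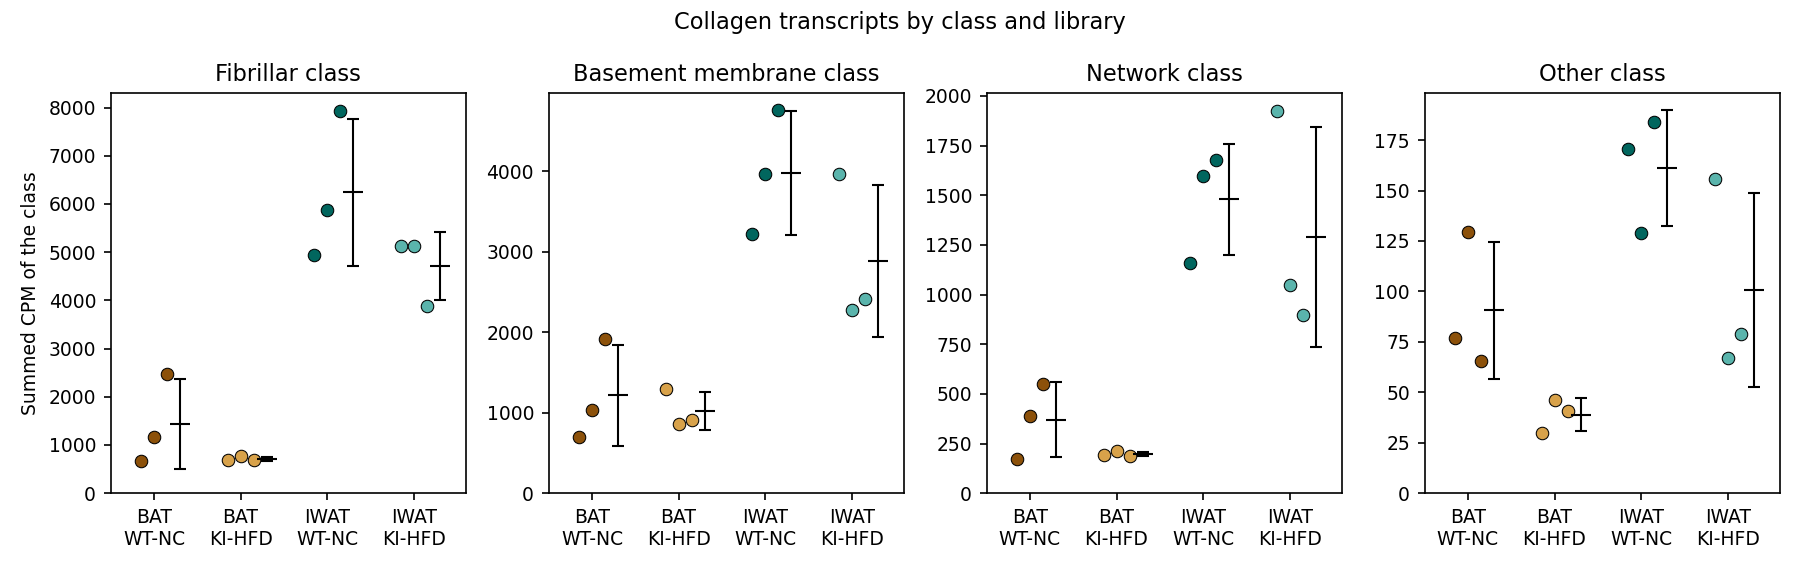
Summed CPM of each collagen class in the 4 groups, on linear axes; points are libraries and bars the group mean ± SD (n = 3). The fibrillar sum is 1437 ± 930 CPM in BAT WT-NC and 6244 ± 1524 CPM in IWAT WT-NC, and the 3 BAT WT-NC libraries are far apart.

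Per exonic length, in TPM, a different chain led in each depot, the length being that of all annotated exons of a gene merged. Col4a1, a type IV chain, came first in BAT, at 246 ± 145 TPM in WT-NC and 179 ± 44.4 TPM in KI-HFD (SD, n = 3 each). Col3a1, the fibrillar chain of soft tissues, came first in IWAT, at 1273 ± 416 TPM in WT-NC and 821 ± 60.9 TPM in KI-HFD (SD, n = 3 each). Within libraries, Col4a1 was above Col3a1 per length in all 6 BAT libraries. Col3a1 was above Col4a1 per length in every IWAT library except KI-HFD replicate 1. In CPM, which takes no account of length, the BAT WT-NC means were 695 for Col4a1 and 708 for Col3a1. In BAT KI-HFD they were 584 and 332 CPM. The lead of Col4a1 in BAT WT-NC thus depended on the length used.

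On normal chow, most measured collagens differed between the depots, mainly toward lower levels in BAT. Of 31 tested members, 17 were lower and 3 higher in BAT at an adjusted p under 0.05 (edgeR quasi-likelihood test, Benjamini-Hochberg over all genes tested). Of all 16173 genes tested, 26.8% were called, 12.6% lower and 14.2% higher. The members' median log2 fold change was -1.58, against 0.00 for all genes. The lower ones comprised 6 of 8 fibrillar, 4 of 7 basement membrane, 4 of 5 network and 3 of 11 other chains. Groups did not overlap for 20 tested members lower and 3 higher in BAT, against 24.7% and 20.9% of all genes. The count rested on few libraries: without IWAT WT-NC replicate 3 it was 8 (11.2% of all genes called), without IWAT WT-NC replicate 2 it was 9 (14.1%), and without BAT WT-NC replicate 3 it was 24 (40.7%).

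In KI-HFD animals, whose libraries are all different, 15 of 30 tested members were lower and 4 higher in BAT. Of all 15721 genes tested there, 34.7% were called, 17.9% lower and 16.8% higher. The members' median was -1.39, against -0.04 for all genes. Groups did not overlap for 17 tested members lower and 4 higher in BAT, against 25.2% and 24% of all genes. Both comparisons called 16 members. How many of all genes both comparisons called was not counted, so this overlap cannot be read as particular to collagens. All 16 had the same sign, 14 of them lower in BAT.

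**Figure D3:**
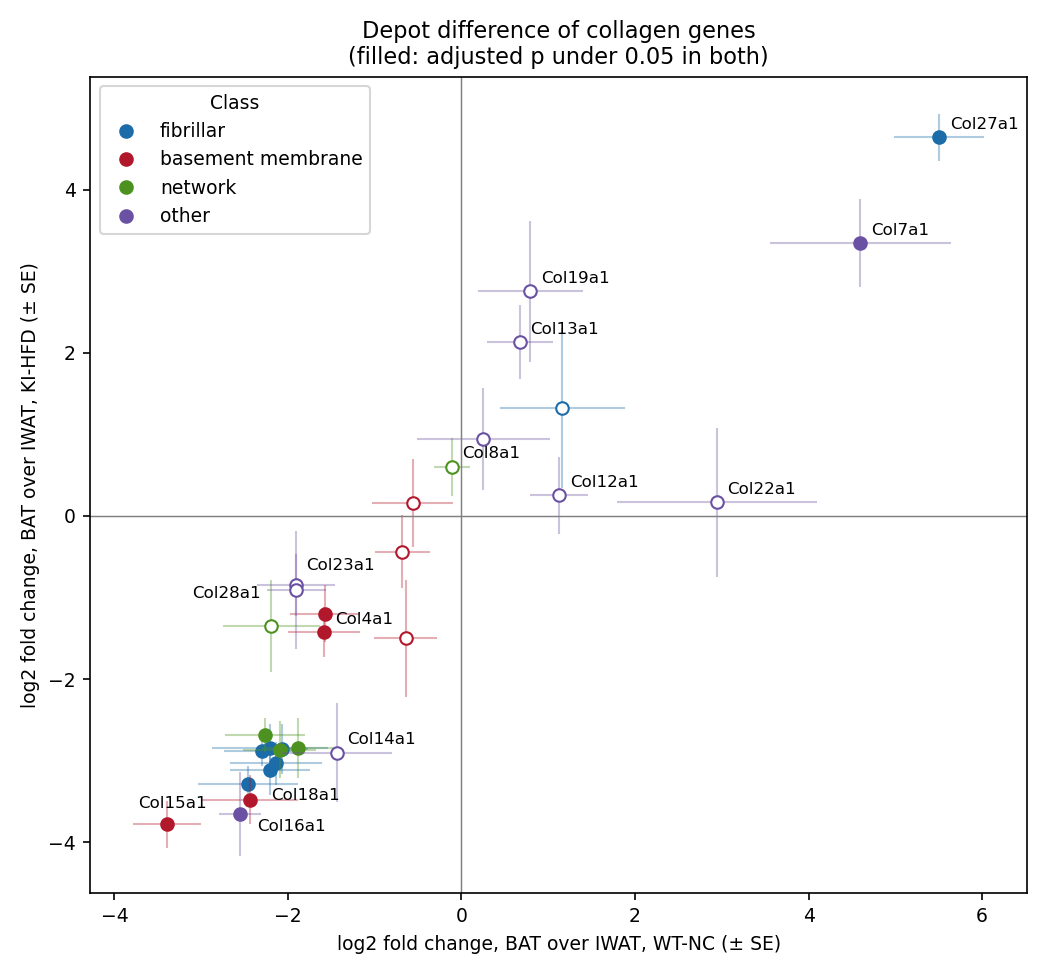
Log2 fold change of BAT over IWAT with its SE for the 30 collagens tested in both, WT-NC on the horizontal and KI-HFD on the vertical axis, coloured by class. Filled points are the 16 called in both; Col27a1 and Col7a1 lie at the upper right and the other 14 at the lower left.

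Marker genes of several cell types of fat differed between the depots too. The 8 fibroblast and progenitor markers summed to 473 to 1214 CPM in BAT and 1599 to 2615 CPM in IWAT, none being at 0 in any library, and 6 of 8 were lower in BAT in WT-NC and 7 of 8 in KI-HFD, against 12.6% and 17.9% of all genes. The 6 endothelial markers summed to 859 to 1194 CPM in BAT and 383 to 1231 CPM in IWAT, and none of them was called lower in BAT. Of them, 1 was called higher in BAT in WT-NC and 3 in KI-HFD, against 14.2% and 16.8% of all genes. Of the 7 pericyte and smooth muscle markers, 3 were called lower in BAT in WT-NC, and 1 lower and 1 higher in KI-HFD. Of the 6 adipocyte markers, 3 were called lower in BAT in WT-NC and 2 in KI-HFD, and 0 higher. Of the 7 macrophage markers, 0 were called lower in BAT in WT-NC and 7 in KI-HFD, with sums of 161 to 1269 CPM in BAT and 762 to 2051 CPM in IWAT. The part of these cells in the collagen difference was not tested.

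Among the fibrillar chains, types I, III and V were lower in BAT. Col3a1 (chr1:45311538-45349706, plus strand, GRCm38) read 185, 581 and 1357 CPM in BAT WT-NC, 325, 389 and 282 CPM in BAT KI-HFD, 2539.7, 3015 and 4521 CPM in IWAT WT-NC and 2243, 2778 and 2043 CPM in IWAT KI-HFD. No BAT library reached an IWAT library. The log2 fold change, BAT over IWAT, was -2.21 (SE 0.67, adjusted p = 0.0427) in WT-NC, lost in 5 of the 6 fits without 1 library, and -2.84 (SE 0.29, adjusted p = 0.000267) in KI-HFD.

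Col1a1 (chr11:94936224-94953042, plus strand), which gives the paired chain of type I collagen, read 42.2, 88.7 and 240.2 CPM in BAT WT-NC and 48.4, 48.1 and 50.2 CPM in BAT KI-HFD, against 556, 751 and 789 CPM in IWAT WT-NC and 566, 464 and 393 CPM in IWAT KI-HFD. The BAT KI-HFD libraries were nearly alike, whereas those of BAT WT-NC spread widely. Its partner Col1a2 read 70.7, 197 and 355 CPM and 103, 108 and 87.1 CPM in the BAT groups, against 845, 806 and 1169 CPM and 870.4, 957 and 595 CPM in the IWAT groups, in the same order. The depot difference was -2.46 (SE 0.58, adjusted p = 0.018) in WT-NC and -3.29 (SE 0.23, adjusted p = 8.09e-05) in KI-HFD for Col1a1. For Col1a2 it was -2.14 (SE 0.53, adjusted p = 0.0217) and -3.03 (SE 0.27, adjusted p = 0.000153). In WT-NC the call was lost in 3 of the 6 fits without 1 library for Col1a1 and in 4 of 6 for Col1a2. Per length, Col1a1 over Col1a2 stayed between 0.843 and 1.76 in the 12 libraries. That ratio depended on the lengths used, 6563 bases for Col1a1 and 12426 for Col1a2. In CPM Col1a1 was below Col1a2 in every library.

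The type V chains, which start fibrils and limit their width, were lower in BAT as well. Col5a1 read 54.1, 72.0 and 117 CPM in BAT WT-NC and 28.0, 38.6 and 47.6 CPM in BAT KI-HFD, against 321, 378 and 352 CPM in IWAT WT-NC and 372, 248 and 207 CPM in IWAT KI-HFD. Col5a2 read 18.9, 41.1 and 72.0 CPM and 24.4, 23.3 and 20.7 CPM in the BAT groups, against 182, 205 and 279 CPM and 193, 159 and 147 CPM in the IWAT groups. Col5a3 read 87.8, 85.2 and 252 CPM and 74.3, 59.1 and 85.7 CPM in the BAT groups, against 495, 713 and 806 CPM and 874, 508 and 497 CPM in the IWAT groups. For all 3 chains every BAT library was below every IWAT library. Their log2 fold changes lay between -2.29 and -2.07 in WT-NC and between -3.11 and -2.86 in KI-HFD, all called. Only the WT-NC call of Col5a3 was lost on leaving out 1 library, in 1 of 6 fits.

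Col27a1 (chr4:63214004-63334991, plus strand), a fibrillar chain known from cartilage, was higher in BAT. It read 212, 91.1 and 79.3 CPM in BAT WT-NC and 74.2, 95.7 and 118 CPM in BAT KI-HFD, against 1.69, 3.82 and 3.21 CPM in IWAT WT-NC and 2.82, 4.55 and 4.11 CPM in IWAT KI-HFD. Every BAT library lay far above every IWAT library, and within a depot the groups overlapped. The difference was 45.5-fold in WT-NC, 5.51 (SE 0.52, adjusted p = 0.000638) on the log2 scale, and 25.0-fold in KI-HFD, 4.64 (SE 0.29, adjusted p = 6.34e-05). No member had a lower p in either comparison, and the call held in all alternatives run. Per length its level in BAT was 24.2 ± 11.5 TPM in WT-NC and 16.7 ± 3.30 TPM in KI-HFD (SD, n = 3 each), which ranked it 10 and 9 among the 44 members. The brown adipocyte and skeletal muscle markers given above were also higher in BAT, and their part in the level of Col27a1 was not tested. The 5 chondrocyte markers summed to 1.49 to 16.6 CPM in BAT and 2.60 to 13.3 CPM in IWAT, with Col2a1 at 0. This sum pools markers of opposite direction. Sox9 was called higher in BAT in WT-NC, at 2.58 (SE 0.61, edgeR adjusted p = 0.0185). Comp was called lower in BAT in KI-HFD, at -3.59 (SE 0.55, edgeR adjusted p = 0.00147). Neither was called in the other group, and their part in the level of Col27a1 was not tested.

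The type IV chains Col4a1 (chr8:11198423-11312826, minus strand) and Col4a2 (chr8:11312805-11449287, plus strand) start head to head and share 22 exonic bases, where reads without strand cannot be assigned. Col4a1 read 404, 596 and 1087 CPM in BAT WT-NC and 717, 499 and 534 CPM in BAT KI-HFD, against 1752, 2064 and 2606 CPM in IWAT WT-NC and 2079, 1302 and 1281 CPM in IWAT KI-HFD. Col4a2 read 261, 387 and 696 CPM and 528, 325 and 339 CPM in the BAT groups, against 1113, 1377 and 1632 CPM and 1313, 614 and 779 CPM in the IWAT groups. BAT lay below IWAT within WT-NC and within KI-HFD for both. The depot difference of Col4a1 was -1.58 (SE 0.42, adjusted p = 0.0268) in WT-NC and -1.43 (SE 0.30, adjusted p = 0.00725) in KI-HFD. That of Col4a2 was -1.58 (SE 0.40, adjusted p = 0.0231) and -1.20 (SE 0.35, adjusted p = 0.0272). In WT-NC both calls were lost in 5 of the 6 fits without 1 library, and the KI-HFD calls of Col4a1 and Col4a2 in 1 and 3 of 6. Per length, Col4a1 over Col4a2 was 1.21 to 1.88.

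Col15a1 and Col18a1, which carry sugar chains and link basement membranes to the tissue around them, were called lower in BAT in both comparisons. Col15a1 (chr4:47208161-47313167, plus strand) read 8.86, 10.6 and 23.6 CPM in BAT WT-NC and 7.86, 9.34 and 11.6 CPM in BAT KI-HFD, against 126, 185 and 154 CPM in IWAT WT-NC and 179.8, 106 and 107 CPM in IWAT KI-HFD. Its depot difference was -3.39 (SE 0.39, adjusted p = 0.00107) in WT-NC and -3.78 (SE 0.29, adjusted p = 9.73e-05) in KI-HFD. Col18a1, the source of endostatin, read 22.2, 34.4 and 106 CPM and 34.1, 24.2 and 20.9 CPM in the BAT groups, against 219, 329 and 355 CPM and 396, 243 and 234 CPM in the IWAT groups. BAT and IWAT did not overlap for either gene, and the depot difference of Col18a1 was -2.44 (SE 0.55, adjusted p = 0.0156) in WT-NC, lost in 3 of the 6 fits without 1 library, and -3.48 (SE 0.30, adjusted p = 0.000146) in KI-HFD. The scarcer type IV chains Col4a3, Col4a4 and Col4a5 ranged over 0.851 to 3.34, 0.600 to 3.95 and 1.78 to 7.33 CPM and were not called.

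Basement membrane chains made up a larger share of the collagen counts in BAT. That share was 38.1 to 43.2% in BAT WT-NC and 45.8 to 58.9% in BAT KI-HFD, against 32.7 to 34.3% in IWAT WT-NC and 26.7 to 35.6% in IWAT KI-HFD, so the depots did not overlap. Fibrillar chains made up 30.9 to 49.4% in BAT and 45.8 to 60.2% in IWAT, which overlap. Per length, Col4a1 over Col1a1 was 8.42, 5.91 and 3.98 in BAT WT-NC and 13.0, 9.13 and 9.36 in BAT KI-HFD, against 2.70 ± 0.253 in IWAT WT-NC and 2.85 ± 0.381 in IWAT KI-HFD (SD, n = 3 each). The BAT KI-HFD libraries all lay above the BAT WT-NC libraries, and all BAT libraries above all IWAT libraries. As these are sums and ratios over members, no test was made.

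**Figure D4:**
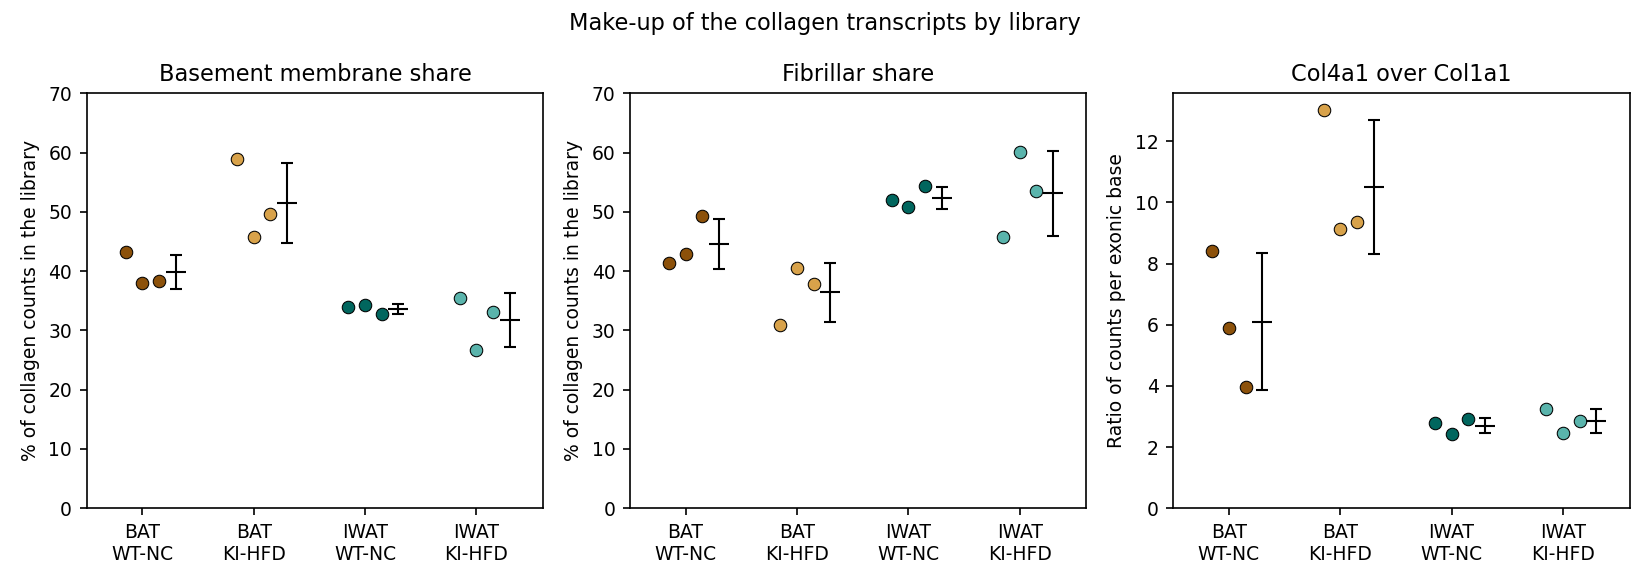
Share of collagen counts in basement membrane chains and in fibrillar chains (percent), and the ratio of Col4a1 to Col1a1 in counts per exonic base, in the 4 groups; points are libraries and bars the mean ± SD (n = 3). The basement membrane share is 38.1 to 58.9% over the BAT libraries and 26.7 to 35.6% over the IWAT libraries.

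Type VI chains, which form filaments around cells, were lower in BAT. Col6a1 read 71.8, 157 and 242 CPM in BAT WT-NC and 82.6, 91.6 and 74.9 CPM in BAT KI-HFD, against 469.6, 637 and 678 CPM in IWAT WT-NC and 951, 448 and 382 CPM in IWAT KI-HFD. Col6a2 read 57.5, 146 and 188 CPM and 56.6, 74.8 and 60.1 CPM in the BAT groups, against 454, 648 and 617 CPM and 721, 342 and 323 CPM in the IWAT groups. Col6a3, whose tail is released as endotrophin, read 23.9, 54.7 and 91.8 CPM and 38.2, 32.0 and 33.3 CPM in the BAT groups, against 204, 284 and 355 CPM and 238, 249 and 173 CPM in the IWAT groups. BAT and IWAT did not overlap for any of the 3, and IWAT KI-HFD replicate 1 held the most Col6a1 and Col6a2. All were called in both depot comparisons, with log2 fold changes of -2.27 to -1.88 in WT-NC and -2.86 to -2.68 in KI-HFD, and the WT-NC call of Col6a1 was lost in 2 of the 6 fits without 1 library. The scarce Col6a6, 0.328 to 4.70 CPM over the 12 libraries, was lower in BAT in WT-NC, at -2.19 (SE 0.56, adjusted p = 0.0237), a call lost in 4 of the 6 fits without 1 library.

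Col8a1 (chr16:57624258-57754737, minus strand), a network chain of vessel walls, was not called between the depots. It read 17.8, 25.8 and 26.5 CPM in BAT WT-NC and 12.3, 10.8 and 19.3 CPM in BAT KI-HFD, against 28.3, 24.2 and 25.3 CPM in IWAT WT-NC and 11.6, 5.70 and 10.4 CPM in IWAT KI-HFD. The WT-NC groups of the depots overlapped, and in IWAT every KI-HFD library was below every WT-NC library. Its depot difference was -0.11 (SE 0.21, adjusted p = 0.727) in WT-NC and 0.60 (SE 0.36, adjusted p = 0.225) in KI-HFD.

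Of the chains that sit on fibril surfaces, Col16a1 was lower in BAT in both comparisons, Col14a1 was lower in KI-HFD, and Col12a1 was higher in BAT in WT-NC. Col16a1 (chr4:130047840-130099283, plus strand) read 8.91, 11.95 and 14.6 CPM in BAT WT-NC and 2.28, 4.06 and 3.68 CPM in BAT KI-HFD, against 78.2, 55.2 and 81.5 CPM in IWAT WT-NC and 73.5, 19.3 and 32.9 CPM in IWAT KI-HFD. Its difference was -2.55 (SE 0.25, adjusted p = 0.000709) in WT-NC and -3.65 (SE 0.51, adjusted p = 0.00097) in KI-HFD. Col14a1 read 3.77, 34.0 and 12.8 CPM and 3.00, 9.06 and 1.49 CPM in the BAT groups, against 47.5, 38.3 and 55.5 CPM and 47.4, 29.9 and 23.4 CPM in the IWAT groups. It was called in KI-HFD, at -2.90 (SE 0.60, adjusted p = 0.00649), and not in WT-NC, at -1.43 (SE 0.63, adjusted p = 0.128).

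Col12a1 (chr9:79598991-79718831, minus strand), known from tissue under tension, read 36.5, 46.9 and 26.0 CPM in BAT WT-NC and 10.4, 16.4 and 16.9 CPM in BAT KI-HFD, against 23.4, 10.5 and 17.8 CPM in IWAT WT-NC and 22.1, 5.80 and 8.65 CPM in IWAT KI-HFD. The WT-NC groups of the depots did not overlap and the KI-HFD groups did. Its depot difference was 1.13 (SE 0.33, adjusted p = 0.04) in WT-NC and 0.25 (SE 0.48, adjusted p = 0.723) in KI-HFD. The first call was lost on library totals (edgeR adjusted p = 0.0795) and with a replicate block (adjusted p = 0.0588), and in 4 of the 6 fits without 1 library (adjusted p up to 0.113).

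Several scarce members were called between the depots. Col7a1 (chr9:108953586-108984875, plus strand), the anchoring fibril chain of skin, read 9.14, 16.9 and 0.703 CPM in BAT WT-NC and 2.70, 2.75 and 4.64 CPM in BAT KI-HFD, against 0.226, 0.294 and 0.618 CPM in IWAT WT-NC and 0.493, 0.239 and 0.239 CPM in IWAT KI-HFD. It was higher in BAT, at 4.60 (SE 1.05, adjusted p = 0.0161) in WT-NC, a call lost with limma-voom (adjusted p = 0.148) with a replicate block (adjusted p = 0.0568) and in 3 of the 6 fits without 1 library, and at 3.35 (SE 0.54, adjusted p = 0.00189) in KI-HFD. Col13a1 (chr10:61838236-61979108, minus strand), a membrane-spanning chain, read 4.40, 4.05 and 4.22 CPM and 4.74, 2.69 and 5.17 CPM in the BAT groups, against 2.07, 1.93 and 4.20 CPM and 0.941, 1.20 and 0.718 CPM in the IWAT groups. It was called in KI-HFD, at 2.13 (SE 0.45, adjusted p = 0.00705).

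Col19a1, at most 1.31 CPM in any library, was called higher in BAT in KI-HFD at 2.75 (SE 0.86, adjusted p = 0.0371), a call lost in 5 of the 6 fits without 1 library. Col23a1, another membrane-spanning chain, read 0.686, 2.02 and 2.39 CPM and 4.20, 4.998 and 2.14 CPM in the BAT groups, against 7.41, 6.76 and 5.68 CPM and 6.54, 6.99 and 6.62 CPM in the IWAT groups. It was lower in BAT in WT-NC, at -1.91 (SE 0.45, adjusted p = 0.0181), a call lost in 3 of the 6 fits without 1 library. Col28a1 (chr6:7997808-8192617, minus strand), known in the mouse from peripheral nerve, read 1.94, 2.94 and 3.14 CPM and 0.300, 1.15 and 2.496 CPM in the BAT groups, against 8.28, 8.44 and 14.3 CPM and 3.09, 1.20 and 3.11 CPM in the IWAT groups. It was lower in BAT in WT-NC, at -1.90 (SE 0.34, adjusted p = 0.00659). Col11a2, Col20a1 and Col9a3 reached at most 2.80, 2.62 and 1.81 CPM and were not called, and Col10a1 and Col4a6, at most 1.14 and 1.30 CPM, were too scarce to be tested between the depots.

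A few members were high in 1 or 2 libraries of a group, some of which also held markers of other tissues. Col22a1, known from the junction of muscle and tendon, read 8.80, 6.02 and 0.0937 CPM in BAT WT-NC, and the fibrillar chain Col24a1 read 1.54, 5.19 and 0.0469 CPM. Both were lowest in replicate 3, where the skeletal muscle markers were lowest too, as was Col7a1. The order was not the same throughout, since Col22a1 was highest in replicate 1 and the muscle markers in replicate 2. In BAT KI-HFD replicate 1 the muscle markers summed to 12462 CPM, with Col22a1 at 0.180 CPM and Col24a1 at 0. The type VI chains Col6a4 and Col6a5 reached 3.75 and 2.51 CPM in IWAT KI-HFD replicate 3, the library with the most lymphocyte markers, and at most 0.276 and 1.84 CPM elsewhere. Col17a1, of the epithelial hemidesmosome, reached 3.15 CPM in IWAT WT-NC replicate 2, the library with epithelial markers, and at most 1.11 CPM elsewhere. The part of these tissues in the levels was not tested.

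Genes that process, bind or degrade collagen also differed between the depots. Of the genes for modification and secretion, 14 were lower and 1 higher in BAT among 31 tested in WT-NC, against 12.6% and 14.2% of all genes. In KI-HFD 17 were lower and 2 higher among 30, against 17.9% and 16.8%. Pcolce2, an enhancer of procollagen cleavage, read 11.5, 28.9 and 18.1 CPM in BAT WT-NC and 209, 173 and 197 CPM in IWAT WT-NC, a log2 fold change of -3.26 (SE 0.34, adjusted p = 0.000776). Adamts2, which cleaves the front end of procollagen, differed by -2.46 (SE 0.35, adjusted p = 0.00254) in WT-NC and -3.11 (SE 0.22, adjusted p = 8.94e-05) in KI-HFD. The crosslinking enzyme Lox differed by -2.60 (SE 0.28, adjusted p = 0.000312) in KI-HFD.

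Of 8 collagen receptors tested, 5 were lower in BAT and 0 higher in each group, with medians of -1.31 in WT-NC and -2.04 in KI-HFD, against 0.00 and -0.04 for all genes. Of all genes, 12.6% were lower in WT-NC and 17.9% in KI-HFD. The collagen-binding kinase Ddr2 differed by -1.58 (SE 0.27, adjusted p = 0.00581) in WT-NC and -2.62 (SE 0.29, adjusted p = 0.000348) in KI-HFD, and the uptake receptor Mrc2 by -3.08 (SE 0.46, adjusted p = 0.00298) and -2.94 (SE 0.56, adjusted p = 0.00443). Of the collagen-degrading proteases, 4 of 6 tested were lower in WT-NC and 5 of 5 in KI-HFD, against the same shares of all genes. Ctsk, a collagen-cutting protease of the lysosome, differed by -2.38 (SE 0.52, adjusted p = 0.0134) in WT-NC, and Mmp2, a secreted protease, by -2.35 (SE 0.24, adjusted p = 0.000267) in KI-HFD.

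Between KI-HFD and WT-NC in BAT, no collagen passed the threshold. The edgeR quasi-likelihood test called 0 of 31 members, with 0.0445% of the 15726 genes tested called. At an unadjusted p under 0.05, 8 members were lower and 0 higher, against 4.76% and 3.15% of all genes. Members at that p, in either direction, were 14 without BAT WT-NC replicate 1 (8.64% of all genes), 5 without BAT WT-NC replicate 2 (4.75%) and 4 without BAT KI-HFD replicate 1 (5.34%). They were 13 on library totals (8.18%) and 4 with limma-voom (7.97%). A log2 fold change below 0 was found for 24 of 31 members, against 49.5% of all genes, and the median was -0.93, against 0.00. The median was -0.35 without BAT WT-NC replicate 3. It was -0.45 in the lower series of numbers in the deposited tables alone, an alternative chosen after seeing the data. That series also lacks BAT WT-NC replicate 3, and it lacks BAT KI-HFD replicate 1. With all libraries and a term for the number series in edgeR, the median was -0.77. That fit called 0 members, and 11 were lower at an unadjusted p under 0.05. Of all genes, 2069 of 15726 were at that p in either direction. Groups did not overlap for Col5a1, Col12a1 and Col16a1, 3 tested members lower in KI-HFD, against 6.25% of all genes.

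The lowest p belonged to the fibril-surface chains Col16a1 and Col12a1, whose values stand above. As log2 ratios of KI-HFD to WT-NC, they gave -1.83 (SE 0.34, adjusted p = 0.239) and -1.34 (SE 0.30, adjusted p = 0.284). DESeq2 called both (adjusted p = 0.000515 and 0.0116), 2 of 35 members, against 1.03% of its genes called lower. The authors' deposited table calls the same 2 of 34 members, at -1.57 and -1.19, against 1.11% of its genes called lower. Without a filter on low counts edgeR called 3 members, these and Col24a1, against 0.582% of genes called lower. Next came Col5a1 at -1.10 (SE 0.32, adjusted p = 0.429), Col6a2 at -1.04 (SE 0.39, adjusted p = 0.555) and Col1a1 at -1.34 (SE 0.53, adjusted p = 0.59).

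Several of these values rested on BAT WT-NC replicate 3. Without it Col1a1 gave -0.44, Col5a1 -0.75 and Col6a2 -0.70, while Col16a1 gave -1.67 and Col12a1 -1.54. The type IV chains gave -0.26 (SE 0.38, adjusted p = 0.922) for Col4a1 and -0.18 (SE 0.39, adjusted p = 0.946) for Col4a2. The 7 macrophage markers summed to 302, 723 and 1269 CPM in BAT WT-NC and 161, 182 and 207 CPM in BAT KI-HFD, and the fibroblast markers to 588, 1214 and 924 CPM and 473, 679.5 and 667 CPM. Macrophage markers were highest in replicate 3 and fibroblast markers in replicate 2 of BAT WT-NC, and the 6 brown adipocyte markers summed to 12822, 9575 and 12597 CPM in BAT WT-NC and 17887, 16608 and 16852 CPM in BAT KI-HFD, without overlap. None of these marker genes was called between the groups, and their part in the collagen values was not tested.

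In IWAT, too, 0 of 29 tested members were called between KI-HFD and WT-NC by the edgeR quasi-likelihood test, with 0% of the 15881 genes tested called. At an unadjusted p under 0.05, 4 members were lower and 0 higher, against 6.3% and 4.6% of all genes. Members at that p were 13 without IWAT KI-HFD replicate 1 (13.7% of all genes in either direction) and 10 on library totals (10.9%). A log2 fold change below 0 was found for 26 of 29 members, against 45% of all genes, with a median of -0.46, against 0.04. The median was -0.30 without IWAT WT-NC replicate 3 and -0.18 in the lower series of numbers alone. That series lacks the same library and IWAT KI-HFD replicate 3. With all libraries and a term for the number series the median was -0.47. Groups did not overlap for Col8a1, Col13a1 and Col28a1, 3 tested members lower in KI-HFD, against 8.3% of all genes.

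Of these, Col8a1 gave -1.49 (SE 0.27, adjusted p = 0.228), Col28a1 -2.06 (SE 0.43, adjusted p = 0.242) and Col13a1 -1.52 (SE 0.44, adjusted p = 0.341), from the levels given above. The next members were Col1a1 at -0.56 (SE 0.21, adjusted p = 0.421) and Col5a2 at -0.42 (SE 0.19, adjusted p = 0.492). DESeq2 called Col8a1 (adjusted p = 8.59e-05) and Col28a1 (adjusted p = 0.000248), 2 of 31 members, against 1.53% of its genes called lower. The authors' deposited table calls the same 2 of 30 members, at -1.28 and -1.53, against 1.58% of its genes called lower. Without a filter on low counts edgeR called Col8a1 alone, against 0.0815% of genes called lower. The 8 fibroblast and progenitor markers summed to 1818 to 2615 CPM in IWAT WT-NC and 1599 to 2396 CPM in IWAT KI-HFD, which overlap. Of these 8, 4 had a log2 fold change above 0 and 4 below. The 7 pericyte and smooth muscle markers summed to 903 to 1094 CPM in IWAT WT-NC and 467 to 808 CPM in IWAT KI-HFD, without overlap. The 6 Schwann cell markers summed to 62.8 to 132 CPM and 74.4 to 172 CPM, which overlap. The 6 endothelial markers summed to 848 to 1231 CPM in IWAT WT-NC and 383 to 766 CPM in IWAT KI-HFD, without overlap, and the 7 macrophage markers to 762 to 2051 CPM and 799 to 1180.0 CPM, which overlap. None of these genes was called between the groups, and their part was not tested.

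**Figure D5:**
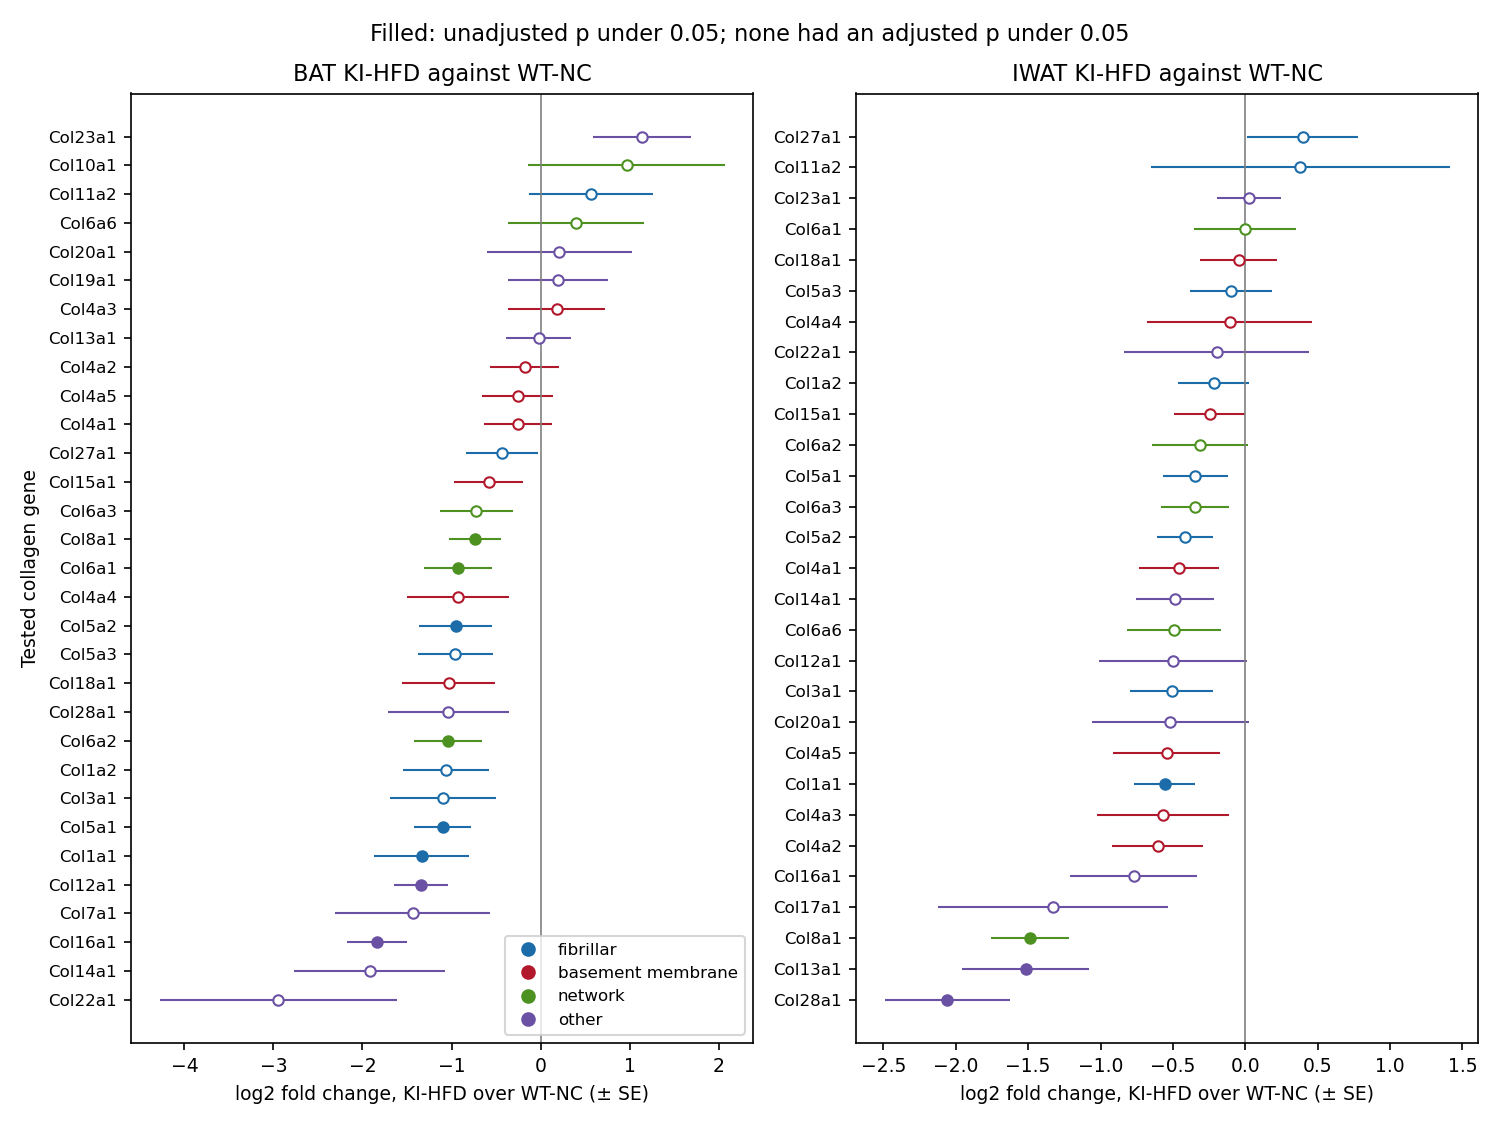
Log2 fold change of KI-HFD over WT-NC with its SE for each tested collagen in BAT and in IWAT, coloured by class. Filled points have an unadjusted p under 0.05; the 8 in BAT and the 4 in IWAT all lie below 0, and none passed the adjusted threshold.

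Whether the KI-HFD difference was unlike in the 2 depots was tested as an interaction over all 12 libraries. It called 0 of 34 members, with 0% of the 17395 genes tested called, and 1 member had an unadjusted p under 0.05, against 4.78% of all genes. In the 12 fits without 1 library that count was 1 to 10, the most without BAT WT-NC replicate 1 (5.9% of all genes). The member, Col13a1, had a log2 ratio of KI-HFD to WT-NC higher in BAT than in IWAT by 1.51 (SE 0.57, adjusted p = 1.00). Next came Col19a1 at 2.02 (SE 1.08, adjusted p = 1.00), Col23a1 at 1.12 (SE 0.60, adjusted p = 1.00), Col8a1 at 0.76 (SE 0.41, adjusted p = 1.00) and Col16a1 at -1.05 (SE 0.58, adjusted p = 1.00). DESeq2 called 0 of 39 members (0.117% of its genes called), and edgeR without a filter called Col6a5 alone (0.0995% of genes called). Of the genes for collagen modification, receptors and proteases, 0 were called in BAT, in IWAT or in the interaction.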

How the data were processed

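The deposited files hold raw read counts per gene for each library. FastQC, STAR, HTSeq, DESeq2 and the build GRCm38.p5 are named, without versions, per the submitters' processing notes. For each depot the authors also deposited 1 comparison table, per the file headers: the mean normalised signal, the log2 change and its error, the Wald score, and raw and adjusted p-values.

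Reads outside genes were left out of library sizes (in BAT, 4.99 to 11.6% in no gene). R 4.3.3 was used with edgeR 4.0.16 (filterByExpr with a minimum count of 10, TMM, quasi-likelihood F test in its legacy form), limma 3.58.1 and DESeq2 1.42.0, over all genes tested, with a threshold of 0.05 on the Benjamini-Hochberg adjusted, two-sided p. Each comparison used its own 6 libraries and the interaction all 12. The SE is the size of the log2 fold change over the square root of F. Lengths and positions came from GENCODE for GRCm38. The fits were also run on simulated counts, drawn with the dispersions that edgeR estimated. These hold no outlying libraries, so they cannot show how the fits fare with the libraries that stood apart here.

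Values in every library were given for 16 set chains, and for the 5 members with the lowest p and every called member per comparison. Col6a6 and Col19a1 are exceptions, given by their range or highest level. The helper genes named were picked from the 3 with the lowest p per list and comparison, and not all of those are named. Members singled out for single libraries were chosen after their values were seen. The members and lists were chosen with earlier results of these data known. The main fits treated the libraries as unpaired. Deviations from the group mean correlated from -0.23 to 0.23 between libraries of equal replicate number. For KI-HFD libraries with an equal number in the deposited tables they correlated from -0.07 to 0.07. In WT-NC, BAT replicate 2 and IWAT replicate 1 share a number, as do both replicate 3 libraries. Pairing by number was not examined there. With 3 libraries per group these values cannot exclude pairing, and whether the depots shared animals is not known. Numbers in the deposited tables recur between depots, and what they stand for is not stated. In WT-NC only replicate 3 carried the same number in both depots, and in KI-HFD no replicate did. A replicate block was thus not a block on these numbers. Nothing says more of the replicates than 3 per group, so p-values measure the spread between these libraries.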

Additional observations from a re-analysis of the deposited data

How the results depend on the processing

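In the alternatives run, no called member and none of the 5 members with the lowest p in a comparison changed sign. Between KI-HFD and WT-NC, the count of called members was 0 in BAT and in IWAT and became 3 and 1 without the filter on low counts and 2 and 2 with DESeq2; the interaction became 1 without the filter. Leaving out 1 library gave 0 calls in these 3 comparisons, 8 to 24 between the depots in WT-NC and 16 to 20 in KI-HFD. In the WT-NC fits with 8 and 24, 1912 of 17058 and 6969 of 17102 genes were called. In the KI-HFD fits with 16 and 20 they were 3463 of 16354 and 4768 of 16242. With a replicate block 18 members were called between the depots in each group and 0 in the other comparisons. Of all genes, that block called 3896 of 16173 between the depots in WT-NC and 5325 of 15721 in KI-HFD. Blocking on the number in the deposited tables gave 17 members in KI-HFD, with 4490 of 15721 genes called. That block was not run in WT-NC. The lower number series alone, an alternative chosen after seeing the data, gave 21 members between the depots in each group and 0 elsewhere. It called 4949 of 16799 genes between the depots in WT-NC and 5353 of 15983 in KI-HFD. RLE size factors, library totals and limma-voom left the count of members called at an adjusted p within 1.5 times. Per length the family summed to 1044, 584, 5595 and 3955 TPM in BAT WT-NC, BAT KI-HFD, IWAT WT-NC and IWAT KI-HFD, with the depots in the same order. The cause of these changes was not tested. Depth limits what can be said of members under 1 CPM.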
